A study of Mus musculus with 4 samples.

Results

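The genes described here are the inhibitors of cyclin-dependent kinases (CDKs) and the retinoblastoma family in mouse oocytes, with and without γ-irradiation. They are the Cip/Kip genes Cdkn1a, Cdkn1b and Cdkn1c, the INK4 genes Cdkn2a, Cdkn2b, Cdkn2c and Cdkn2d, and the pocket protein genes Rb1, Rbl1 and Rbl2. They were chosen by name: every transcript listed under the mouse gene ID of one of these symbols was taken, and its estimated counts and TPM values were summed by gene. All 10 genes were in the table, which lists 17374 genes, and they held 19 of its 45505 transcripts. The study sequenced germinal vesicle stage oocytes, which are arrested in prophase of the first meiotic division, in 4 libraries. The 2 control libraries were made from non-irradiated oocytes and the 2 irradiated libraries from oocytes that received 5 Gy of γ-irradiation and were collected 24 h later, both from females at postnatal day 16. The methods name C57/Bl6/DBA2J F1 hybrid mice and give 59 oocytes for each condition. No gene was deleted and no transgene is named for these oocytes. Both groups were kept in medium with milrinone, which holds the meiotic arrest. The sources used here do not say whether the control oocytes were also cultured for 24 h, so that irradiation and time in culture cannot be told apart. The libraries of a condition came from independent experiments according to the methods.

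CDKs drive the cell cycle when bound to a cyclin, and CDK inhibitors hold them back. Cip/Kip proteins bind cyclin-CDK complexes of several kinds, while INK4 proteins bind CDK4 and CDK6 and keep them from D-type cyclins. The pocket proteins RB1, RBL1 (p107) and RBL2 (p130) hold E2F factors at the promoters of genes for DNA replication until CDKs phosphorylate them. After DNA damage, p53 switches on Cdkn1a in many cell types, and Cdkn2a and Cdkn2b are used as markers of cellular senescence. In the ovary, Cdkn1b is known for restraining the growth of dormant follicles. The arrest of the germinal vesicle oocyte itself is set by low activity of CDK1 with cyclin B rather than by the G1 block that most of these inhibitors impose.

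The estimated counts summed to between 33349466 and 37232818 in the 4 libraries, and the 10 genes together held only 0.00271% to 0.00372% of them. Irradiated library 2 stood apart: it had 9943 genes at a TPM of at least 1, against 9093 to 9245 in the other three, and a TMM scaling factor of 1.19 against 0.923 to 0.975. The libraries of a condition differed by more than sampling noise. The chi-square per degree of freedom was 9.04 in the controls and 150.09 in the irradiated pair. Within a condition, neither library was thus a repeat of the other. All 15 oocyte markers were above a TPM of 1 on average, with a summed TPM of 29779 to 31857. Of 16 granulosa and cumulus cell markers, Foxl2, Amh, Amhr2 and Fst were not listed and 12 were. Their summed TPM was 16.9 and 19.3 in the controls and 16.9 and 22.6 after irradiation. Of them 4, Inhbb, Hsd17b1, Gja1 and Has2, did not exceed 3 counts in any library. Inha, Inhba, Nr5a1 and Ptgs2 had a TPM of 0 to 0.31. Another 4 had a mean TPM of at least 1: Cyp19a1 (8.79 to 10.2), Nr5a2 (3.53 to 7.43), Fshr (1.66 to 2.89) and Kitl (1.45 to 2.07). These levels were within or above the range of the genes described here, whose highest TPM was 6.92. Theca and stroma markers (6 of 11 listed) summed to a TPM of 1.32 to 2.81, immune and blood cell markers (3 of 10 listed) to 1.63 to 3.63 and endothelial markers (4 of 5 listed) to 4.46 to 6.78. Pecam1 made up most of the endothelial sum, at 3.85 to 5.79. Each of the 4 sums for other cell types was highest in irradiated library 2. TPM does not correct for the shift of that library. On log2 TPM with a pseudocount of 0.1, the median log2 fold change over all genes tested was 0.21. The part of other cells in the values below was not tested.

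Stretches upstream of an annotated start are shown for Cdkn1a, the member that p53 is known to control, and for Rbl1, which had the smallest p-value of the family. They were read from RefSeq on GRCm38.p6, 5′ to 3′ on the strand of the gene, and end at the base before the start. For Cdkn1a this is the start of the listed transcript, NM_007669.5, and another annotated start of the gene lies further upstream. Capitals mark the GC box, GGGCGG on either strand, in Cdkn1a and the E2F site TTTCGCGC in Rbl1. No site for p53 was searched for, and the capitals mark none.
Cdkn1a, chr17:29093519-29093768, plus strand: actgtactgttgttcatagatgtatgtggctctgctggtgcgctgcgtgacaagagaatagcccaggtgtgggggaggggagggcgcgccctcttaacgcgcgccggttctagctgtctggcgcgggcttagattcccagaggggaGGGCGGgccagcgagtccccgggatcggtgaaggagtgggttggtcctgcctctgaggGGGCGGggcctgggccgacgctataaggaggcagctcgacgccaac
Rbl1, chr2:157204535-157204784, minus strand: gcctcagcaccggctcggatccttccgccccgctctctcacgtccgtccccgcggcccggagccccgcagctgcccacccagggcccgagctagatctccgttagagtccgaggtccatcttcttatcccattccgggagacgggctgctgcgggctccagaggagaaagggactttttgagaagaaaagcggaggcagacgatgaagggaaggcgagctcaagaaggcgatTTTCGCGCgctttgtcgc
The Cdkn1a stretch held 2 GC boxes, which begin at positions -104 and -46 from the start. The Rbl1 stretch held 1 E2F site, at -18. Both strands of windows from 250 bases before to 50 bases after each start were searched, and 8 of the 10 members had such a window, 11 windows in all; Cdkn1c and Rb1 had none in the table used. TTTCGCGC occurred in the window of Rbl1 alone among the members and in 0.323% of all 32851 windows. The second E2F form, TTTGGCGC, occurred in none of the 11 and in 0.514% of all windows. The CHR element TTTGAA, a motif of genes that the DREAM complex controls, occurred in the windows of Cdkn2b and Rbl2 and in 17.9% of all windows. GC boxes, which bind SP1 in many promoters without a TATA box, occurred in 9 of the 11 member windows, at least 1 for each of the 8 members, and in 35.7% of all windows. A match describes the letters only, since the study measured no binding in these oocytes.

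Levels between genes are compared in TPM, which corrects for transcript length and has the same total in each library. None of the members was among the abundant transcripts of the oocyte. Cdkn2d (mean TPM 4.42) and Rb1 (4.01) led the order, followed by Cdkn2b (3.12), Cdkn1b (1.87), Rbl1 (1.82), Cdkn1c (1.11), Cdkn2c (0.81), Cdkn1a (0.48) and Rbl2 (0.24), with Cdkn2a last (0.015). Of the 17374 listed genes, 64.6% did not exceed the mean level of Cdkn2d, 37.5% that of Cdkn1a and 9.15% that of Cdkn2a. Every listed transcript had a count in some library, so that these shares are among genes with a count and not among all annotated genes. Neighbours in this order were separated by the range of their 4 libraries in 4 of 9 pairs. Cdkn2b stood above Cdkn1b, with a lowest value of 2.55 against a highest of 2.18. Rbl1 stood above Cdkn1c by a small gap, 1.46 against 1.43. Cdkn1a stood above Rbl2, 0.37 against 0.25, and Rbl2 above Cdkn2a, 0.21 against 0.06. The other 5 neighbouring pairs overlapped, so that Cdkn2d and Rb1, for instance, had no fixed order. With TMM-scaled CPM per kilobase of annotated transcript in place of TPM, 44 of 45 pairs kept their order, and the exception was Rb1, which then stood above Cdkn2d.

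**Figure D1:**
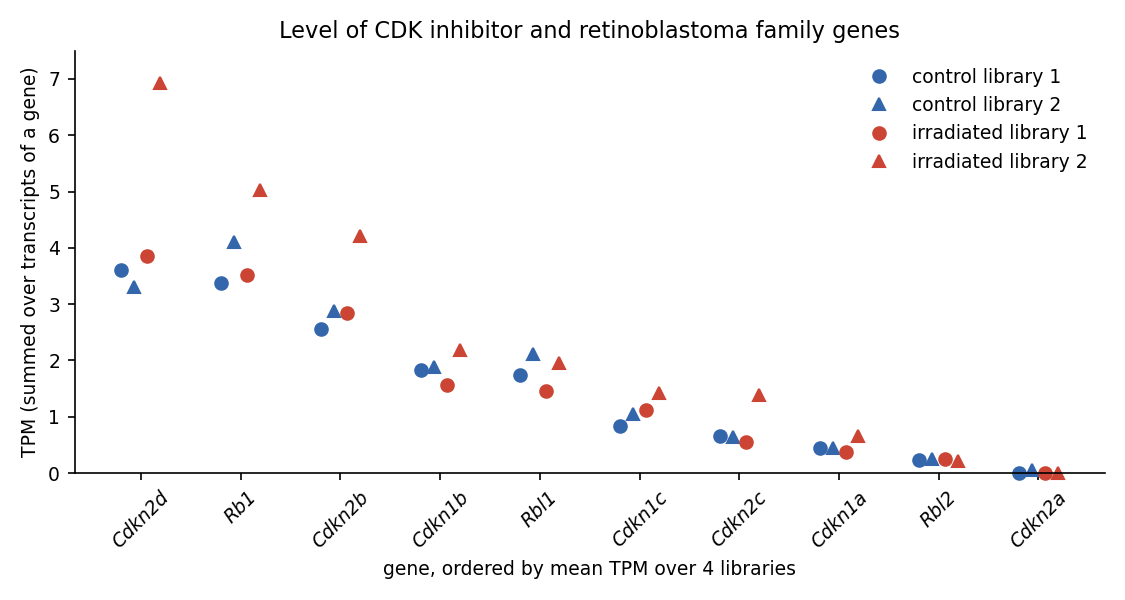
TPM of each member gene, summed over its transcripts, in the 4 libraries; the y axis is linear, blue marks are control and red marks irradiated, circles are library 1 and triangles library 2. Cdkn2d and Rb1 lie highest, and Cdkn2a lies at or next to 0.

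Cdkn1a encodes p21, the inhibitor that p53 induces after DNA damage, and lies on chromosome 17 (29090979 to 29100722). It was barely detected in either condition. Control oocytes gave estimated counts of 21 and 19 and irradiated oocytes 16 and 27, and its TPM was 0.44, 0.45, 0.37 and 0.66 in the same order. The irradiated pair enclosed the control pair on both scales. After scaling by TMM to a common library size, control oocytes had a mean normalized count of 21.1 ± 0.658 (SD, n = 2) and irradiated oocytes one of 20.1 ± 4.41 (SD, n = 2). The log2 fold change was -0.05 with a 95% interval of -0.89 to 0.79, or 0.538-fold to 1.73-fold, and edgeR's quasi-likelihood test gave an adjusted p of 0.963. An increase of 2 log2 units, the size the study's methods ask of a changed gene, lay outside this interval. The sign of the small estimate was not stable, since it was 0.12 with library size alone, 0.13 and 0.06 on log2 TPM with pseudocounts of 0.1 and 1, and 0.13 without irradiated library 1. The listed transcript, NM_007669.5, has 3 exons, and 93 of its 1913 exon bases face exons of a gene on the opposite strand, AC167363.2, with which it shares no stretch of 100 bases, the read length.

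Cdkn1b encodes p27 and lies on chromosome 6 (134920401 to 134925525). It was the most abundant Cip/Kip gene in TPM, with 1.83 and 1.89 in the controls and 1.57 and 2.18 after irradiation. Its estimated counts were 111 and 102 in the controls and 88 and 114 after irradiation. In normalized counts both irradiated libraries (93.6 and 98.2) lay under both controls (114 and 111), while in TPM the irradiated pair enclosed the controls. This gave a log2 fold change of -0.23 (SE 0.194, 95% interval -0.69 to 0.23), and edgeR's adjusted p was 0.740.

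Cdkn1c encodes p57, is imprinted and expressed from the maternal copy in somatic tissues, and lies on chromosome 7 (143458339 to 143461059). Its estimated counts were 40 and 43.97 in the controls and 49 and 59 after irradiation. Both irradiated libraries were above both controls in TPM (1.12 and 1.43 against 0.84 and 1.04) and in normalized counts (52.1 and 50.8 against 41.0 and 47.7). The difference was within the spread: the log2 fold change was 0.21 (SE 0.251, 95% interval -0.38 to 0.81), and edgeR's adjusted p was 0.793. The transcript NM_009876.4 has 589 of its 1901 exon bases opposite exons of Gm44732, and 21.8% of its stretches of 100 bases also occur in that gene. How the authors counted with respect to strand is not given in the sources used here, so that reads of Cdkn1c and of Gm44732 cannot be told apart there.

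Cdkn2a, which encodes p16Ink4a and, from another first exon, p19Arf, was at the floor of detection. A single count was recorded, in control library 2, and the other control library and both irradiated libraries had 0. A count of 0 allows up to 3 counts, which is a CPM of 0.0806 to 0.0869 in the 3 libraries at 0. No fold is given, and the gene did not pass the filter on low counts. The only listed transcript, NM_001040654.1 (chromosome 4, 89274471 to 89282192, 3 exons), has the first exon of p16Ink4a. The second RefSeq transcript, which starts at the first exon of p19Arf, was not among the listed transcripts. Every listed transcript had a count in some library, and the sources used here do not say why this one is absent.

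Cdkn2b, the neighbour of Cdkn2a on chromosome 4 (89306289 to 89311032), encodes p15 and was clearly present. Its estimated counts were 84 and 85 in the controls and 87 and 120 after irradiation, with TPM values of 2.55, 2.88, 2.85 and 4.21. In normalized counts both irradiated libraries (92.5 and 103) stood above both controls (86.1 and 92.1), by a gap of less than 1 count between the nearest libraries, and in TPM the groups overlapped. Its log2 fold change of 0.14 (SE 0.205, 95% interval -0.35 to 0.62) had an adjusted p of 0.831 in edgeR. Cdkn2a and Cdkn2b share no stretch of 100 bases, so that reads of the full length tell them apart.

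Cdkn2c encodes p18 and lies on chromosome 4 (109660876 to 109666756). Its count in irradiated library 2 stood apart, 43 against 21 and 18 in the controls and 13 in irradiated library 1. The irradiated pair thus held both the lowest and the highest value, and the groups overlapped. Its log2 fold change was 0.34, with the widest interval of the family (SE 0.496, 95% interval -0.84 to 1.51), and edgeR's adjusted p was 0.828. Without irradiated library 2 the estimate turned to -0.57, and without irradiated library 1 it was 0.83.

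Cdkn2d encodes p19Ink4d and lies on chromosome 9 (21288459 to 21291421). It had the largest estimate of an increase among the members. The estimated counts were 105 and 86 in the controls and 105 and 174 after irradiation, and the TPM values were 3.61, 3.31, 3.85 and 6.92. Both irradiated libraries lay above both controls in TPM and in normalized counts, narrowly for library 1 (112 normalized counts against 108 in the higher control) and clearly for library 2 (150 normalized counts). Control oocytes had a mean of 100.4 ± 10.2 normalized counts (SD, n = 2) and irradiated oocytes one of 131 ± 27.0 (SD, n = 2), a ratio of 1.31 (95% interval 0.898 to 1.90). The log2 fold change was 0.38 (SE 0.228, 95% interval -0.16 to 0.92), and the adjusted p of edgeR's quasi-likelihood test was 0.708, so that the difference did not pass. Leaving out irradiated library 1 gave 0.56 with an adjusted p of 0.0243, and without irradiated library 2 it was 0.15 with an adjusted p of 0.892. In the fit without irradiated library 1, in which the remaining irradiated library is assumed to vary like the controls, 34.3% of all genes had an adjusted p under 0.05, and none of the members reached a log2 fold change of 2.

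Rb1, on chromosome 14 (73192858 to 73325951), encodes the retinoblastoma protein and gave the highest estimated counts of the family. They were 414 and 446 in the controls and 396 and 528 after irradiation. The normalized counts of 424 and 483 in the controls and 421 and 455 after irradiation overlapped. Rb1 had a log2 fold change of -0.05 (SE 0.145, 95% interval -0.39 to 0.29), and edgeR's adjusted p was 0.911. This was the narrowest interval among the members, 0.761-fold to 1.22-fold. The sign was not fixed: the estimate was 0.11 with library size alone, 0.17 and 0.14 on log2 TPM with pseudocounts of 0.1 and 1, and 0.04 without control library 2. The listed transcript, NM_009029.3, has 27 exons, and 105 of its exon bases lie opposite exons of Rcbtb2.

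Rbl1, which encodes p107, lies on chromosome 2 (157145893 to 157204534). It had the smallest p-value of the family and the largest estimate of a decrease. Its estimated counts were 216 and 222 in the controls and 173 and 198 after irradiation. Both irradiated libraries were below both controls in normalized counts (184 and 170 against 221 and 241), while in TPM (1.46 and 1.96 against 1.74 and 2.11) the groups overlapped. Control oocytes thus averaged 231 ± 13.6 normalized counts (SD, n = 2), and irradiated oocytes 177 ± 9.53 (SD, n = 2). The log2 fold change was -0.38 (SE 0.169, 95% interval -0.78 to 0.02), a ratio of 0.767, and edgeR gave it an unadjusted p of 0.0580 and an adjusted p of 0.708. The estimate was negative in all 14 alternatives, between -0.45 and -0.11. Without irradiated library 1 it was -0.45 with an adjusted p of 0.0424, and in the other alternatives the adjusted p was 0.511 or more.

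Rbl2, on chromosome 8 (91070057 to 91123844), encodes p130, the pocket protein of the DREAM complex in resting cells, and was the least abundant pocket protein gene. The estimated counts were 30.08 and 28.13 in the controls and 30.15 and 23.09 after irradiation, and the TPM stayed between 0.21 and 0.25. In normalized counts irradiated library 1 (31.9) was above and irradiated library 2 (19.8) below both controls (30.7 and 30.3). For Rbl2 the log2 fold change was -0.26 (SE 0.350, 95% interval -1.09 to 0.57), with an adjusted p of 0.816 from edgeR, and it was 0.06 without irradiated library 2. Of its stretches of 100 bases, 6.57% also occur in genes on the opposite strand, Aktip and Gm45464, which bears on the total in the same way as for Cdkn1c.

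The study asked which transcripts change after irradiation, and its methods give limits of an adjusted p of 0.05 and a log2 fold change of 2 in size. They name both edgeR and DESeq2, while the study's results give changed transcripts at P under 0.05. The values below are therefore not a like-for-like repeat of the study's own counts. With gene totals, 9 of the 10 members could be tested, and 0 passed; 0.00796% of all genes tested passed, 1 of 12569. At an unadjusted p under 0.05, again 0 of the 9 members passed edgeR's test, against 5.92% of all genes (4.63% higher and 1.29% lower in irradiated oocytes). DESeq2, edgeR's exact test and limma on TPM also gave 0 members, adjusted or not. In normalized counts the groups did not overlap for 5 of the 9 members, higher in irradiated oocytes for Cdkn1c, Cdkn2b and Cdkn2d and lower for Cdkn1b and Rbl1. Among all genes tested this held for 41.9%, with 22.1% higher and 19.9% lower. The log2 fold changes ran from -0.38 for Rbl1 to 0.38 for Cdkn2d, beside a median of 0.01 over all genes tested, and all 9 intervals lay between -1.09 and 1.51. Scaling by library size alone moved the median of all genes to 0.17, and log2 TPM with a pseudocount of 0.1 moved it to 0.21. In both settings the estimates of Cdkn1a and Rb1 were above 0. That of Cdkn1a was also above 0 without irradiated library 1, and that of Rb1 without control library 2, where the median was 0.01 in each fit. The intervals do not show that the genes were equal in both conditions, only that changes of 2 log2 units lay outside them in this model.

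**Figure D2:**
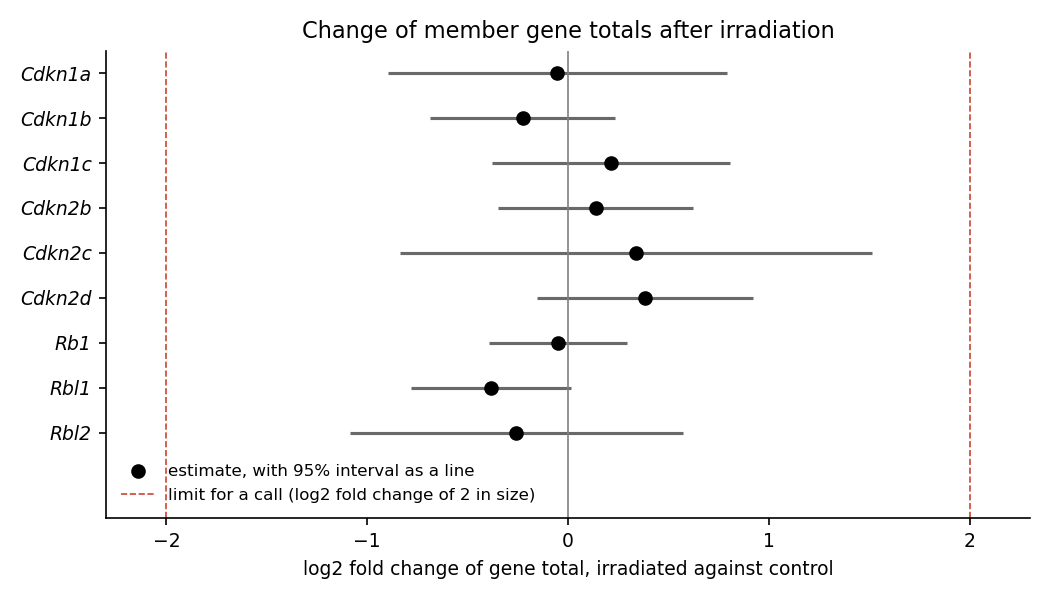
Log2 fold change of the gene total in irradiated against control oocytes for the 9 members tested, with dots for edgeR's estimate and lines for its 95% interval. Every line crosses 0, the one of Rbl1 only just, and all lie inside the dashed limits at -2 and 2.

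Of the members, 5 had several listed transcripts, 14 in all, and their counts show how far a member can be read below the level of the gene. Of these 14 transcripts, 10 had 3 counts or fewer in at least 1 library. For Rbl2 the whole count lay on NM_011250.4 in control library 1 (30.08) and irradiated library 1 (30.15) and on NM_001282001.1 in control library 2 (28.13) and irradiated library 2 (23.09). The choice thus followed the replicate number and not the condition. All 4792 exon bases of NM_001282001.1 are also in NM_011250.4, which has 133 more. For Cdkn1c the pattern was similarly scattered over 5 transcripts: NM_009876.4 held 24.03 and 0.01 counts in the controls and 37.32 and 14.74 after irradiation, and NM_001354981.1 had all of its 22.77 counts in control library 2. The predicted Cdkn1c transcript XM_006508469.4 held 15.97, 0, 11.68 and 27.82 counts and XM_006508470.4 0, 13.58, 0 and 16.44, while XM_030242048.1 had 7.61 counts in control library 2 alone. These transcripts came and went between libraries of the same condition, although the gene total stayed between 40 and 59.

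The other members with several transcripts were less extreme. For Cdkn2d the known transcript NM_009878.3 held 53.41 and 32.74 counts in the controls and 79.77 and 82.59 after irradiation, and the predicted XM_006509968.2 held 51.59, 53.26, 25.23 and 91.41. The groups did not overlap for the known transcript (log2 fold change 0.81, 95% interval -0.38 to 2.00), while the predicted one overlapped (-0.05, -1.99 to 1.88). The share of the known transcript in the Cdkn2d count was 50.9% and 38.1% in the controls and 76.0% and 47.5% after irradiation, so that the shares overlapped too. For Rbl1, NM_011249.2 held most of the count in every library, 198.07 and 170.88 in the controls and 173 and 144.61 after irradiation, and its log2 fold change was -0.32 (95% interval -1.10 to 0.47). The predicted XM_006499018.1 of Rbl1 ranged from 0 to 48.55 counts, with irradiated library 1 at 0. For Cdkn2c, NM_007671.3 held 11.88 and 10.73 counts in the controls and 13 and 17.73 after irradiation, and its log2 fold change was 0.29 (95% interval -1.81 to 2.39). The excess of Cdkn2c in irradiated library 2 lay mostly on NM_001301368.1, with 25.27 counts against 9.12 and 7.27 in the controls and 0 in irradiated library 1.

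In the fit of all 26645 transcripts, 14 of the 19 member transcripts were tested and 0 passed, at an adjusted or an unadjusted p under 0.05; among all transcripts 0% passed adjusted and 4.9% unadjusted (2.73% higher and 2.17% lower). The groups did not overlap for 5 of the 14 member transcripts, 3 higher and 2 lower in irradiated oocytes, against 36.6% of all transcripts (18.7% higher and 17.9% lower). The smallest unadjusted p was 0.129, for NM_009878.3 of Cdkn2d. DESeq2 and edgeR's exact test also gave 0 member transcripts, while limma on log2(TPM + 1) gave NM_009878.3 an unadjusted p of 0.0164 and an adjusted p of 0.851. Leaving out a library gave 1 more transcript under 0.05 unadjusted in each of 2 fits, NM_009876.4 of Cdkn1c without control library 1 and XM_006499018.1 of Rbl1 without irradiated library 2, with adjusted p-values of 1.00 and 0.794. A test of whether transcripts change their share of the gene (diffSpliceDGE with Simes' method) could be run for Cdkn1c, Cdkn2d, Rbl1 and Rbl2 and called 0 of the 4 genes, with an adjusted p of 1.00 for each and none under 0.05 unadjusted, against 0.237% of 6323 genes called and 5.55% under 0.05 unadjusted. Depth and spread leave this level weak. On simulated libraries with the same spread in both groups, edgeR recovered 39% of transcripts changed by 3 log2 units among 26645. For genes it recovered 99% among 12569. The real irradiated pair differed more than the control pair, so that these shares hold for the simulated setting only.

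**Figure D3:**
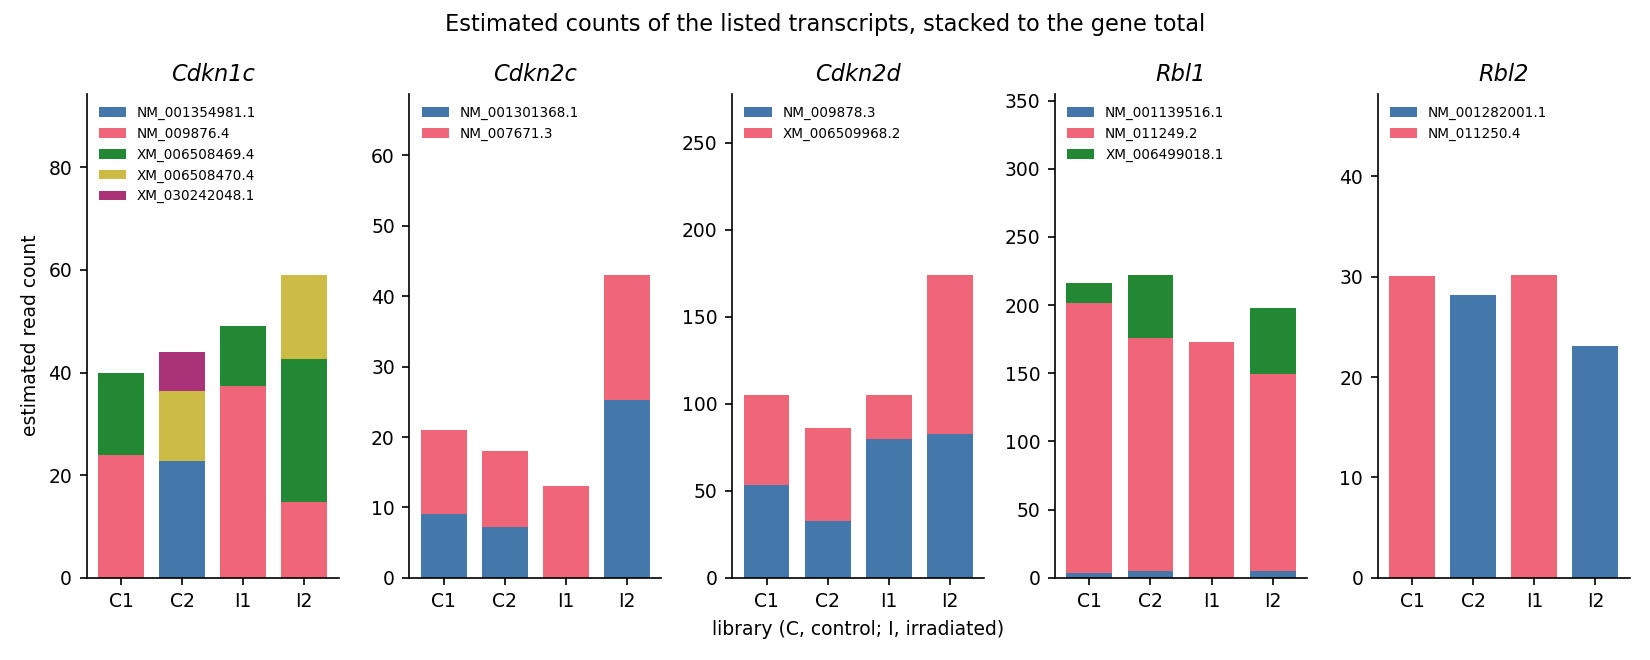
Estimated read counts of the listed transcripts of Cdkn1c, Cdkn2c, Cdkn2d, Rbl1 and Rbl2, stacked to the gene total, in control (C1, C2) and irradiated (I1, I2) libraries; each panel has its own linear axis. The Rbl2 bars change colour with the library number, while their heights stay between 23.09 and 30.15 counts.

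The 2 lists of cyclins, CDKs and their modifiers, which also hold genes that these inhibitors do not bind, spanned a far wider range of TPM than the members. Among 15 G1 cyclins and CDKs, 14 were listed. The highest were Cdk7, the CDK-activating kinase (43.8 to 45.2), and Ccne2, an E-type cyclin (30.3 to 62.1). Cdk4, a target of INK4 proteins, had a TPM of 4.4 and 5.79 in the controls and 6.03 and 10.6 after irradiation, and its D-type partner Ccnd3 had 4.27, 4.37, 5.43 and 9.64. The remaining D-type cyclins and Cdk6, chosen here after their values were seen, were lower: Cdk6 had 0.44 to 0.80, Ccnd1 0.29 to 0.84 and Ccnd2 0.01 to 0.07. The M-phase CDK1 module, which serves meiotic arrest and resumption, ran from the level of the members to far above it. Cks2, a CDK-binding subunit, had a TPM of 2601 to 2846 and Ccnb1, cyclin B1, 1877 to 1926. Cdk1 itself and Wee2, the oocyte kinase that keeps CDK1 inactive, both also chosen after their values were seen, had 48.0 to 52.6 and 128 to 156. At the low end Ccnb3, Cdc25b and Cdc25c, named for the same reason, had a mean TPM of 1.90, 2.18 and 2.55. The highest value of any member in any library was 6.92, for Cdkn2d.

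**Figure D4:**
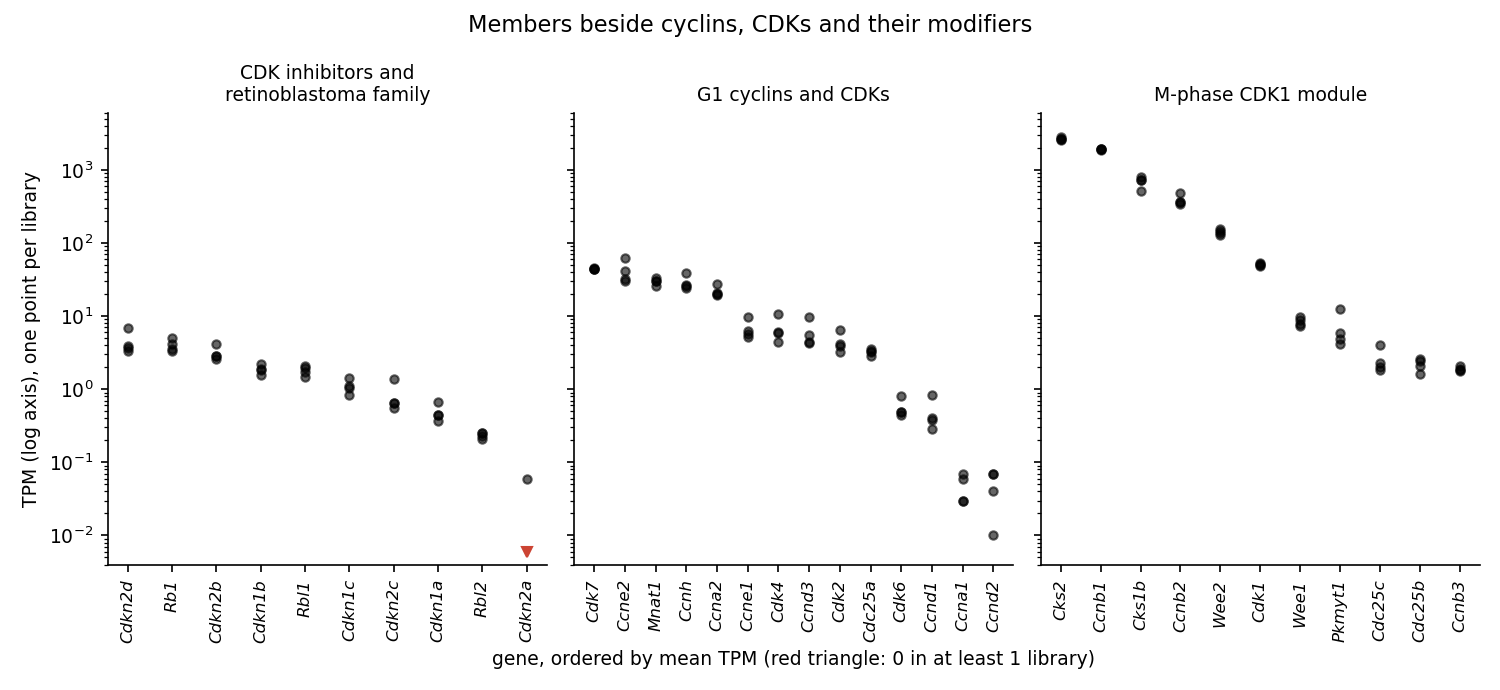
TPM on a log axis, 1 point per library, for the 10 members, the listed G1 cyclins and CDKs, and the M-phase CDK1 module, each ordered by mean TPM; a red triangle marks a gene at 0 in at least 1 library. No member exceeds 6.92, whereas Ccnb1 and Cks2 lie above 1877.

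In 9 lists of partners, regulators and targets, holding 137 distinct genes of which 111 could be tested, 0 genes passed edgeR's test at both limits, as against 0.00796% of all genes, and 7 had an unadjusted p under 0.05, a limit that 5.92% of all genes passed. The smallest adjusted p of edgeR's quasi-likelihood test in the main fit was 0.708. Leaving out irradiated library 1 or irradiated library 2 leaves 1 library in that group, and 0 list genes were called at both limits in either fit. The adjusted p alone, without the limit on the fold change, depended on which irradiated library was left out. Mcm2 and Mdm2, named here after their values were seen, had log2 fold changes of 0.43 and 0.36 without irradiated library 2. In the main fit they had 0.40 and 0.31. Among G1 cyclins and CDKs, 12 were tested with a median log2 fold change of 0.16, beside 0.01 over all genes. Ccnd3 was higher in both irradiated libraries, with 188.32 and 186.02 counts in the controls and 236.75 and 385.84 after irradiation (log2 fold change 0.57, 95% interval 0.12 to 1.02), and Cdk4 likewise with 147, 170, 185 and 299 counts (0.44, -0.05 to 0.94). In the M-phase CDK1 module all 11 genes were tested, with a median of -0.19. Pkmyt1, a kinase that inhibits CDK1, had 187.09 and 187.59 counts in the controls and 251.97 and 457.91 after irradiation (0.75, 0.23 to 1.26), and Wee1 had a log2 fold change of -0.22.

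The E2F factors and the genes they control, which the pocket proteins hold in check, showed small differences in both directions. Of 10 E2F and DP factors 8 were tested, with a median log2 fold change of -0.03. E2f5, which binds RBL2, was the highest in TPM at 133 to 159, with a log2 fold change of -0.36. Tfdp1, its DP partner, had 25.5 to 31.2, with -0.14, and E2f4 had 21.2 to 43.3, with 0.39. Without irradiated library 2 the estimates of E2f4 and E2f5 were 0.13 and -0.12. The 9 genes of the DREAM and MuvB complex had a median of -0.05, led in TPM by Lin37 (234 to 344) and Lin52 (64.1 to 68.5). Mybl1, a factor of the same complex, had counts of 167.73, 151.93, 152 and 338, so that its log2 fold change of 0.43 became -0.06 without irradiated library 2. Lin9 had a log2 fold change of -0.17, which turned to 0.75 with known transcripts alone and to 0.05 on log2 TPM. The 18 replication genes controlled by E2F had a median of 0.02, with 9 above and 9 below 0. The helicase subunits Mcm2 and Mcm7 were both higher in irradiated libraries, Mcm2 with 740 and 672 counts in the controls and 942 and 1117 after irradiation (0.40, 95% interval 0.10 to 0.70), Mcm7 with 710, 630, 811 and 1116 counts (0.37, 0.05 to 0.69). The highest in TPM were Gins2 (184 to 266) and Tyms (110 to 125), with log2 fold changes of 0.06 and -0.27.

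Genes that set the amount of the inhibitors were tested in the same way. The list for turnover and control of Cip/Kip proteins had 15 of 17 genes tested, with a median log2 fold change of -0.07. It was led by Skp1, a subunit of the ubiquitin ligase for p27, with a TPM of 10883 to 12598, and by Cks1b, its cofactor, with 521 to 789. The smallest p-values were those of the deubiquitinase Usp19 (0.29) and the ligase subunit Cul4b (-0.27), given here as log2 fold changes. Among 15 Polycomb and other factors that repress or control the INK4 locus, 12 were tested with a median of 0.00. Cbx7, a Polycomb subunit, had 26 and 22 counts in the controls and 41 and 63.01 after irradiation, with no overlap, and a log2 fold change of 0.96 (95% interval 0.26 to 1.65). Eed and Ezh2, subunits of Polycomb repressive complex 2, were the highest in TPM (80.5 to 127 and 71.4 to 83.8), with log2 fold changes of 0.00 and -0.15, and Suz12 of the same complex had -0.25.

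Of 25 target genes of p53 other than Cdkn1a, 21 were tested, and 13 were above and 8 below 0, with a median log2 fold change of 0.16. Mdm2, the ligase for p53, had a TPM of 49.3 and 50.2 in the controls and 69.3 and 83.2 after irradiation, with no overlap. Its normalized counts gave a log2 fold change of 0.31 (95% interval -0.09 to 0.71). Ccng1, cyclin G1, had 61 and 63 counts in the controls and 86 and 184 after irradiation (0.94, 0.23 to 1.65). Rrm2b, a ribonucleotide reductase subunit, lay the other way, with 4125 and 3949.01 counts in the controls and 3172 and 3197.99 after irradiation (-0.47, -0.85 to -0.10). These differences, like that of Cdkn1a, did not pass the adjusted test. Of 18 genes of the senescence-associated secretory list only 11 were listed and 6 tested, with a median of 0.14; Hmgb1 (TPM 170 to 187) and Igfbp7 (10.4 to 13.8) were the highest, with log2 fold changes of -0.24 and -0.01, and Ccl2 had 63, 70, 66 and 165 counts, in which only irradiated library 2 stood apart. The 7 genes with an unadjusted p under 0.05 were Ccnd3, Pkmyt1, Mcm2, Mcm7, Cbx7 and Ccng1, higher in irradiated oocytes, and Rrm2b, lower.

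**Figure D5:**
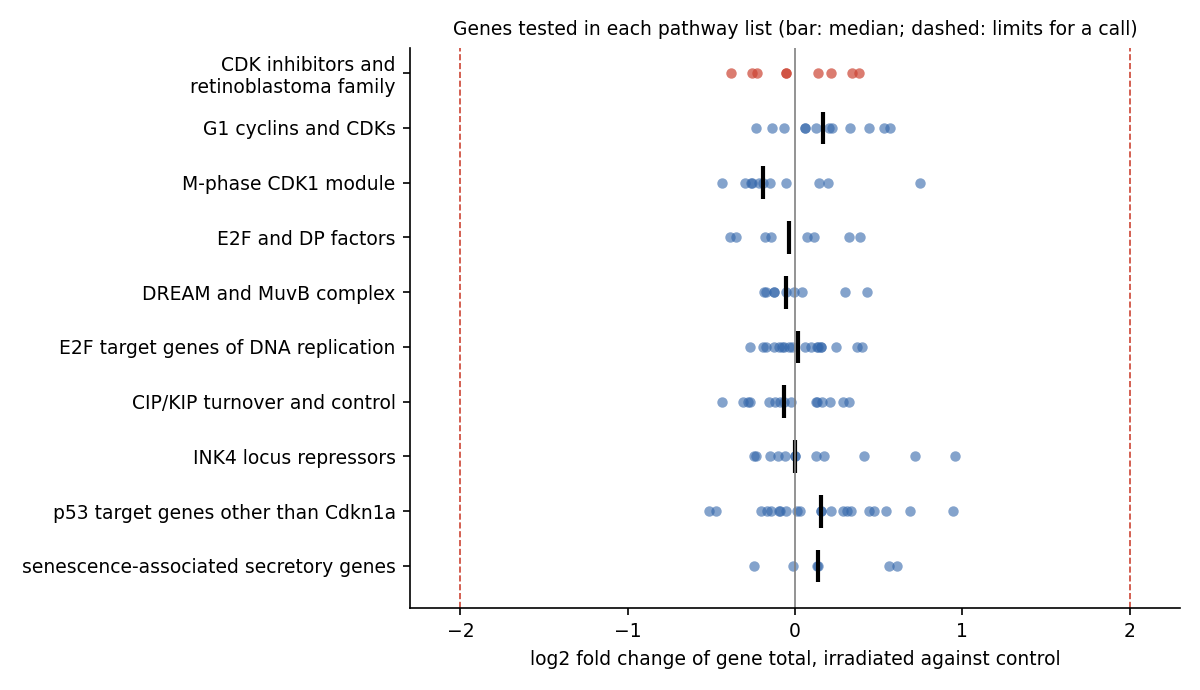
Log2 fold change of gene totals in irradiated against control oocytes, 1 dot per gene tested, for the members (red) and the 9 lists (blue); bars are list medians, which lie between -0.19 and 0.16, and dashed lines are the limits for a call. No dot reaches -2 or 2.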

How the data were processed

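RNA-seq of germinal vesicle stage oocytes was analysed in 4 libraries, grouped as control or irradiated by their titles. Paired-end reads (100 bp) were mapped by the authors to GRCm38 using Bowtie2, and the deposited table gives, unscaled for library size, the estimated count of every RefSeq transcript. The authors also deposited TPM values, which are scaled for transcript length to the same total in each library. The submitters' processing notes name HISAT2, Bowtie2 and RSEM, without versions. The deposited FPKM columns, in which the authors divided by transcript length and library size, and the columns of averages, 10 in all, were not used here. Control libraries 1 and 2 held 37232818 and 33349466 counts, irradiated libraries 1 and 2 35350906 and 34532230. Counts were shared out among matching transcripts by a program, so that a transcript's count carries that error too. Counting intervals and the floor of 3 counts cover counting error only.

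Symbols and gene coordinates came from RefSeq on GRCm38.p6 by gene ID (17323 of 17374 matched), and exons from GENCODE M21 on GRCm38. Counts summed by gene were rounded and tested over the whole table by the quasi-likelihood method of edgeR 4.0.16 under R 4.3.3. Low genes were removed by filterByExpr (minimum count 10), libraries were scaled by TMM, the model had no block (glmQLFit, then glmQLFTest), and p-values were adjusted by Benjamini and Hochberg's method across the whole table. Genes were called where the adjusted p was under 0.05 and the log2 fold change exceeded 2 in size, as in the study's methods. Normalized counts are counts scaled by TMM to the mean library size, and 95% intervals are those of the fitted model. Shares of transcripts were tested with diffSpliceDGE. DESeq2 1.42.0, edgeR's exact test, limma 3.58.1 on log2 TPM with pseudocounts of 1 and 0.1, other scalings, no filter, known transcripts alone, a replicate block and fits leaving out 1 library were the alternatives.

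The members and lists were chosen with earlier results of these data known, and the lists were written from general knowledge. Named were all members, every member transcript with at least 10% of its gene's count in a library, and from each list any called gene, the 2 of highest mean TPM and the 2 of smallest p-value. The quasi-likelihood and exact tests of edgeR, DESeq2 and the test of shares were run on simulated counts, and limma was not. The counts were drawn with these libraries' means and sizes, with 200 features shifted by 3 log2 units. Both groups were given the same spread, whereas the real chi-square per degree of freedom was 9.04 in the controls and 150.09 in the irradiated pair. Among 12569 genes edgeR recovered 99% with 2 false calls, and 95.6% of its intervals held the true value. Among 26645 transcripts edgeR recovered 39% with 0 false calls and DESeq2 49% with 67. The test of shares recovered 20% of 200 changed among 5657 genes with 1 false call. Plots used matplotlib 3.10.9 under Python 3.11.15.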

Additional observations from a re-analysis of the deposited data

How the results depend on the processing

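No member gene, member transcript, member share or list gene was called in the main fits or in any alternative, and the order of levels by length-scaled counts kept 44 of 45 pairs. The direction of single estimates was less stable. The log2 fold change of Cdkn1a (-0.05) was 0.12 with library size alone, 0.13 with log2(TPM + 0.1) and 0.0616 with log2(TPM + 1), with or without the filter, and that of Rb1 (-0.05) was 0.11, 0.17 and 0.14 in the same settings. The estimate for XM_006509968.2 of Cdkn2d (-0.05) was 0.16 with library size alone and 0.0413 with log2(TPM + 1). That of Lin9 (-0.17) was 0.75 with known transcripts alone, 0.0524 with log2(TPM + 0.1) and 0.0484 with log2(TPM + 1), with or without the filter, and that of Wee1 (-0.22) was 0.0065 and 0.0071 in these TPM settings. Leaving out 1 library at a time gave -0.31 to 0.13 for Cdkn1a, -0.57 to 0.83 for Cdkn2c, -0.15 to 0.0413 for Rb1, -0.63 to 0.0629 for Rbl2, -1.05 to 0.52 for XM_006509968.2 and -0.0593 to 0.78 for Mybl1. The cause was not tested. The estimates of Cdkn1b, Cdkn1c, Cdkn2b, Cdkn2d and Rbl1 kept their sign in all 14 alternatives, though that of Cdkn1b came as near to 0 as -0.00054. Without irradiated library 1, Cdkn2d and Rbl1 had adjusted p-values of 0.0243 and 0.0424 in edgeR, along with 34.3% of all genes, and in their other alternatives the adjusted p was 0.511 or more. A fit that leaves 1 library in a condition assumes that it varies like the rest. The number of all genes called was 1 in the main fit, 0 with limma, with library size alone or with known transcripts alone, 3 without a filter, 4 with DESeq2, 10 with edgeR's exact test and 16 to 84 with a library left out, and that of all transcripts was 0 against 248 with DESeq2 and 299 with the exact test. The replicate numbers are not stated to pair the libraries, and libraries of the same number deviated together only weakly (r = 0.0975 across gene totals, genes not being independent replicates). With the replicate block 7 of all genes and 0 transcripts were called, and 0 members. Member counts of 16 to 27 for Cdkn1a and up to 1 for Cdkn2a limit what depth can show, and Cdkn2a could not be tested.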
